A study of Mus musculus with 72 samples.

Results

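Acetylation of histone H3 at lysine 27 (H3K27ac) was compared between microglial nuclei of mice lacking Sgsh (SgshKO) and of wild-type (WT) mice at 4 months of age. The 4 chromatin immunoprecipitation sequencing (ChIP-seq) libraries, replicates 1 and 2 of each genotype, were taken by their labels from the 72 samples of the series. They were read over 91770 windows of 800 bp at sites of open chromatin in microglia, of which 69663 held enough tags to be tested. All mice were C57BL/6. Nuclei came from the forebrain and were sorted as PU.1+ and as negative for OLIG2 and NEUN, so that both genotypes went through the same gate. The same assay in mice of both genotypes at 8 months (2 libraries each) and the unprecipitated input of each microglial library served for comparison. Further comparisons used NEUN+ neuronal and OLIG2+ oligodendrocyte H3K27ac at 4 months, and MITF, TFEB and TFE3 ChIP-seq of microglia, which the deposited table holds as 1 merged pool per factor and genotype with no age given. The labels do not say whether replicates came from separate animals or pools, and they give neither the sex of the mice nor the position of the Sgsh deletion. P-values therefore measure only the spread between these libraries, which may be technical.

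H3K27ac is deposited on nucleosomes at active promoters and enhancers, and its level at an enhancer is widely used as a readout of that enhancer's activity. Sgsh encodes N-sulfoglucosamine sulfohydrolase, a lysosomal enzyme that removes sulfate groups from heparan sulfate, and its loss leads to storage of heparan sulfate in lysosomes, as in mucopolysaccharidosis type IIIA (Sanfilippo syndrome). Microglia, the resident macrophages of the brain, carry a large load of endocytosed material. The basic helix-loop-helix factors MITF, TFEB and TFE3 regulate lysosome and autophagy genes through E-boxes with the letters CACGTG.

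The sequences below are promoters of list genes at which H3K27ac was higher in SgshKO microglia and which hold a CACGTG core. Of the 5 promoter windows that met these conditions with a change of at least 1 on the log2 scale, these 3 had the highest TFE3 tags in the SgshKO pool. They were chosen after the values were seen. Each is the RefSeq promoter window of 300 bases on GRCm38.p6 (the same build as mm10), from 250 bases before the start to 50 after, read 5′ to 3′ on the gene's strand, all of which is the + strand here. The capitals mark the CACGTG core. Hif1a lies at chr12:73907617-73907916, Gaa at chr11:119267713-119268012 and Nceh1 at chr3:27182754-27183053.
Hif1a: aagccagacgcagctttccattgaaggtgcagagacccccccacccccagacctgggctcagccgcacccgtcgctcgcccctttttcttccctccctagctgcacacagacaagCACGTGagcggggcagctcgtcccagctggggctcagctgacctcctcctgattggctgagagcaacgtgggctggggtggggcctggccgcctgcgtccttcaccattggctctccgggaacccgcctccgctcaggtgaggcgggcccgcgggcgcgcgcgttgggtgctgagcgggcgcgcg
Gaa: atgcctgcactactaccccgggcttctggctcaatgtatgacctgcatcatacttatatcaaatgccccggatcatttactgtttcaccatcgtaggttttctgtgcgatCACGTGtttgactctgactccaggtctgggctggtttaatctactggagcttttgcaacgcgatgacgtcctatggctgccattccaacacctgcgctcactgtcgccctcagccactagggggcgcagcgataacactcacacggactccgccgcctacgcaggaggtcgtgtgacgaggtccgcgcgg
Nceh1: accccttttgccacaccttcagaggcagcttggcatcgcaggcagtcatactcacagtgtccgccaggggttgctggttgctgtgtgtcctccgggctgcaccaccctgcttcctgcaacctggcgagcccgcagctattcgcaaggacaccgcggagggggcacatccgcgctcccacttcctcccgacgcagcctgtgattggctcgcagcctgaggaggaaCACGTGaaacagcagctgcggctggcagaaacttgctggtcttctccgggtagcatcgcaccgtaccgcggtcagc

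Hif1a encodes the oxygen-regulated subunit of hypoxia-inducible factor. Its promoter peak held 219 and 209 tags per 10M tags of the library (below, tags) in the SgshKO libraries and 107 and 94.9 in WT, where tags are scaled by the trimmed mean of M-values (TMM), as are all H3K27ac levels here. The change was 1.08 on the log2 scale (standard error 0.18, limma adjusted p = 3.84e-05), and the genotypes did not overlap. Gaa encodes the lysosomal acid alpha-glucosidase that breaks down glycogen. Its promoter peak held 42.7 and 52.9 tags in SgshKO against 15.2 and 19.4 in WT (log2 change 1.42, limma adjusted p = 0.00651). Nceh1, a cholesteryl ester hydrolase, had a weak promoter peak of 17.7 and 10.5 tags in SgshKO against 4.80 and 1.11 in WT (log2 change 2.06, limma adjusted p = 0.0207). The call at Gaa was lost without SgshKO replicate 2 (limma adjusted p = 0.110) or WT replicate 1 (0.0569), and that at Nceh1 without SgshKO replicate 1 (0.254), SgshKO replicate 2 (0.0580) or WT replicate 2 (0.158). In the factor pools, in tags per 10M tags of the library total over windows of 200 bp, the Hif1a site held 8.40 MITF tags in WT and 190 in SgshKO, and 172 and 283 TFE3 tags. At Gaa the TFE3 pools held 66.4 and 156 tags and at Nceh1 40.9 and 101, WT first in each pair. Choosing sites by their SgshKO TFE3 tags favours a rise at them. Of the windows left out, Sc5d held 32.2 and 37.4 TFE3 tags and Maff 3.64 and 16.2. The input pools held 9.39 and 4.21 tags at Hif1a, 7.55 and 0 at Gaa, 0.20 and 5.45 at Nceh1, and 2.25 and 17.8 at Maff. Each pool is 1 value with no replicate, so no test was made of these differences.

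CACGTG, searched on both strands, was present in 14.2% of the 274 promoter windows that lay inside a higher peak. It was present in 6.90% of the 174 inside a lower peak, in 11.2% of the 7711 inside a peak that was not called, and in 7.15% of all 32851 RefSeq promoter windows of this length. The longer TCACGTG, which contains CACGTG, was present in 9.85%, 2.87%, 6.63% and 3.77% of these windows. The AP-1 motif TGANTCA was present in 10.6%, 3.45%, 4.31% and 7.81%, and the PU.1 motif GAGGAAGT in 4.74%, 6.90%, 3.53% and 3.2%. These shares describe the letters in the windows and were not tested.

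The Sgsh start-site peak itself (chr11:119355102-119355902) held 100 and 112 tags in SgshKO and 111 and 117 in WT. The groups overlapped, with a log2 change of -0.10 (limma adjusted p = 0.815). Since the position of the deletion is not known here, this peak does not check the genotype.

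The 4 libraries held 12000879 and 14702474 tags (WT) and 14516861 and 14858655 tags (SgshKO), of which 43.7% and 51.3% (WT) and 39.3% and 47.2% (SgshKO) lay in the peaks. Across peaks the WT pair correlated at 0.897 and the SgshKO pair at 0.931. WT replicate 1 correlated with the 8-month WT libraries at 0.903 with each, and WT replicate 2 at 0.942 and 0.944, so WT replicate 1 stood somewhat apart. In the inputs limma called 0 of 39323 peaks (0.0%), with 1210 at an unadjusted p below 0.05. On the inputs edgeR and DESeq2 also called 0 (989 and 2159 at an unadjusted p below 0.05). Xist, the transcript of the inactive X chromosome, had a peak 1423 bp inside its gene with 47.1 tags in SgshKO replicate 1, 0.612 in SgshKO replicate 2, and 40.8 and 38.8 in WT. SgshKO replicate 2 thus differed from the other 3 at this peak, which was called neither higher nor lower (limma adjusted p = 0.0689). At 8 months the Xist peak held 55.5 and 63.1 tags in SgshKO, 30.6 in WT replicate 1 and 1.44 in WT replicate 2. The 5 sex-linked genes of the list had 2 tested peaks in all and none called, and the table held no peak nearest to the Y-linked genes Kdm5d, Ddx3y, Eif2s3y or Uty. The part of these differences in the results was not tested, but the count of calls without SgshKO replicate 2 is given with the counts.

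Microglial markers marked these nuclei. Of 32 homeostatic microglial genes, 31 had a peak within 1 kb of the start, with summed levels of 6702 and 6876 tags in SgshKO and 8037 and 7796 in WT. Neuron markers had such a peak at 3 of 10 genes, summing to 5.54 to 9.57 tags, with Rbfox3, Snap25 and Syt1 among those without one. Oligodendrocyte markers (7 of 12 genes) summed to 169 and 176 tags in SgshKO and to 286 and 305 in WT, almost all at Cnp and Mog, while Mag and Sox10 had no such peak. The Mog peak held 18.4 and 18.5 tags in SgshKO against 80.0 and 73.2 in WT (log2 change -2.00, limma adjusted p = 9.45e-06). Astrocyte markers (4 of 7) summed to 48.6 and 52.9 in SgshKO and to 42.4 and 44.9 in WT, with no such peak at Gfap or Aqp4. Endothelial markers (3 of 6) summed to 96.4 and 79.4 in SgshKO and to 122 and 90.4 in WT, with none at Cldn5, Cdh5 or Tek. Border-associated macrophage markers (5 of 9) summed to 208 and 195 in SgshKO and to 135 and 187 in WT. Blood leukocyte markers (2 of 10) summed to at most 6.15 tags, with 0 in WT replicate 1. Over all their tested peaks, 0 higher and 0 lower were called of 7 for neurons, 4 and 4 of 38 for oligodendrocytes, 1 and 1 of 20 for astrocytes, 6 and 10 of 41 for endothelium, 3 and 0 of 29 for border-associated macrophages, and 2 and 5 of 15 for leukocytes. The lower calls made up 24.4% of the endothelial and 33.3% of the leukocyte peaks, against 4.32% of all tested peaks. The higher calls made up 14.6% and 13.3% of them, against 7.87%. Few genes gave these calls. For endothelium the lower ones were at Pecam1, Cdh5 and Kdr and the higher ones at Flt1 and Kdr. For leukocytes the lower ones were at Plac8, with 4, and Ccr2, and the higher ones at Ms4a1. All higher calls for border-associated macrophages were at Mrc1. Those for oligodendrocytes were split by gene, with the lower ones at Cnp and Mog and all the higher ones at Mbp. The higher Mbp peak of smallest p held 224 and 220 tags in SgshKO against 122 and 154 in WT (log2 change 0.69, limma adjusted p = 0.0046). After scaling by library total alone, higher calls numbered 0 for oligodendrocytes, border-associated macrophages and leukocytes. The part of other cells in the results was not tested, and in bulk nuclei fewer cells of a type and less signal per cell cannot be told apart.

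In SgshKO microglia at 4 months, 8495 of 69663 tested peaks (12.2%) differed from WT by limma at a false discovery rate below 0.05. Of these, 5483 (7.87% of tested peaks) were higher and 3012 (4.32%) lower. Higher peaks rose from a median of 27.1 tags in WT to 76.1 in SgshKO, with a median log2 change of 1.40. Lower peaks fell from 84.2 to 37.1, with a median log2 change of -1.10. A change of at least 4-fold was fitted at 1427 higher and 402 lower peaks, and at least 2-fold at 3986 (72.7%) and 1730 (57.4%). The 2 libraries of each genotype did not overlap at 5473 of the higher and 3011 of the lower peaks, which a call nearly requires, and at 35895 of all 69663 tested peaks. At a single peak 2 against 2 libraries cannot reach an exact permutation p below 0.333. The share of calls that were higher was 64.5% after TMM scaling and 50.4% after scaling by library total alone, which called 3286 higher and 3233 lower and moved the median change of all peaks from 0.00 to -0.15 on the log2 scale. Calls fell to 3945 without SgshKO replicate 1, 4598 without SgshKO replicate 2 and 4979 without WT replicate 1, and numbered 9048 without WT replicate 2. Windows often shared bases, since 50.1% of tested peaks and 51.1% of called ones overlapped another tested peak, so peaks of 1 locus are not independent.

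The differences were more frequent away from start sites. Within 1 kb of a start, 849 of 19909 promoter peaks (4.26%) were higher and 528 (2.65%) lower. Farther away, 4634 of 49752 distal peaks (9.31%) were higher and 2484 (4.99%) lower. The share of higher peaks was 8.21% at 1 to 10 kb, 9.59% at 10 to 50 kb, 10.3% at 50 to 100 kb and 11% beyond 100 kb, while that of lower peaks went from 4.57% to 7.33%. After scaling by library total alone, promoters held 407 higher and 566 lower calls (41.8% higher) and distal peaks 2879 and 2667 (51.9%). By annotation, intergenic peaks were higher in 10.7% and lower in 5.13% of 18251, intron peaks in 8.42% and 4.65% of 32430, and promoter-TSS peaks in 3.90% and 2.35% of 13805. Peak strength moved with these shares too. When tested peaks were put in 5 equal groups by mean level, 1.61% were higher and 0.689% lower in the weakest group, and 10.7% and 6.99% in the strongest. On chromosome X, 24 of 1104 tested peaks (2.17%) were higher and 45 (4.08%) lower. On chromosome 3 10.5% were higher and 3.16% lower, and the other autosomes had 6.39% to 8.83% higher.

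**Figure D1:**
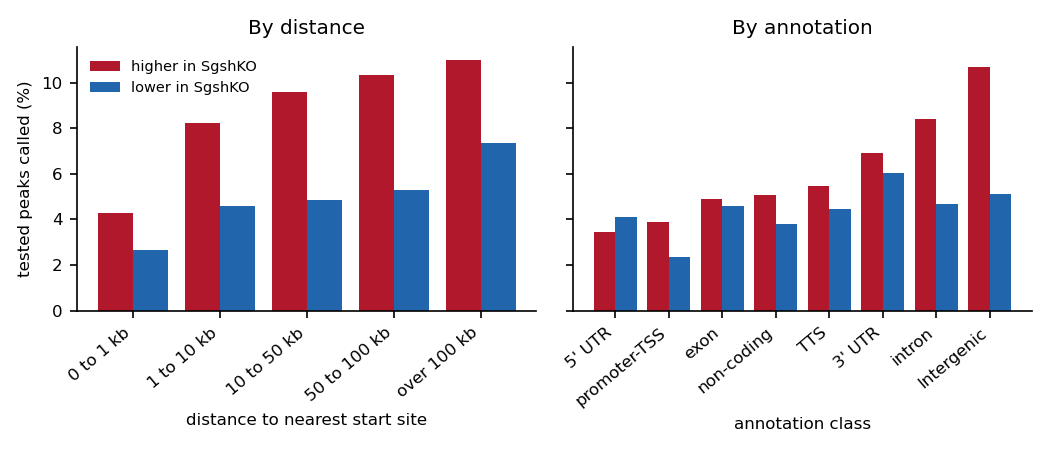
Share of tested H3K27ac peaks called at 4 months (y axis, %) by distance to the nearest start site (left) and by the deposited annotation class (right), with red bars for peaks higher and blue bars for peaks lower in SgshKO microglia. Higher peaks make up 4.26% of peaks within 1 kb of a start and 11% of those beyond 100 kb.

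The promoter peaks with the smallest p included genes of surface proteins, a chemokine and an enzyme of heparan sulfate breakdown. Rftn1 encodes raftlin, a lipid raft protein. Its start-site peak (chr17:50190134-50190934) held 114 and 136 tags in SgshKO and 10.4 and 7.77 in WT, a log2 change of 3.65 (standard error 0.31, limma adjusted p = 1.04e-10). At Folr1, the gene of folate receptor alpha, a peak 774 bp inside the gene held 127 and 105 tags in SgshKO and 2.40 and 3.88 in WT (log2 change 4.84, limma adjusted p = 1.10e-10). Both promoters had few tags in WT, and in SgshKO they were well above the median SgshKO level of 30.6 tags over all tested peaks. Hpse encodes heparanase, the endoglycosidase that cuts heparan sulfate chains. Its start-site peak (chr5:100719333-100720133) held 64.0 tags in both SgshKO libraries, 2.40 in WT replicate 1 and 0 in WT replicate 2 (log2 change 5.14, standard error 0.51, limma adjusted p = 1.97e-09).

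Cd63, a tetraspanin of late endosomes and lysosomes, held 248 and 324 tags in SgshKO at 375 bp from its start, and 79.2 and 68.2 in WT (log2 change 1.93, limma adjusted p = 8.29e-10). Ccl3, a chemokine, held 319 and 247 against 72.8 and 76.6 (log2 change 1.90, limma adjusted p = 1.58e-09). Bhlhe40, a basic helix-loop-helix repressor, held 99.4 and 110 tags in SgshKO at 609 bp before its start, and 11.2 and 15 in WT (log2 change 2.92, limma adjusted p = 5.0e-09). In each of these both SgshKO libraries were above both WT libraries, which the choice of these promoter peaks required. Adap1, the gene of a GTPase-activating protein of the Arf family, rose by 2.03 on the log2 scale, and the gene model 4933432I03Rik by 2.55. All 8 were also higher at 8 months, by 1.79 (Cd63) to 3.63 (Bhlhe40).

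Among lower promoter peaks, that of the gene model 6030468B19Rik had the smallest p, with 25 and 37.5 tags in SgshKO and 174 and 194 in WT (log2 change -2.54, limma adjusted p = 1.96e-09). Tmem176a, a membrane protein gene, held 6.62 and 5.54 tags in SgshKO at its start and 66.4 and 49.9 in WT (log2 change -3.05, standard error 0.41, limma adjusted p = 9.49e-07). Chn2, which encodes the Rac GTPase-activating protein beta-chimaerin, held 107 and 98.4 against 300 and 220 (log2 change -1.32, limma adjusted p = 8.95e-07). These promoters kept part of their signal in SgshKO, unlike the WT signal at Folr1 or Hpse, and Tmem176a came nearest to loss. Kcnk12, a potassium channel subunit gene, fell by 1.83 on the log2 scale, Cdk2ap1 by 1.74, Mroh2a by 1.44 and Tm6sf1 by 1.42. A peak 997 bp before the microRNA gene Mir1953 fell by 2.06. All 8 had negative changes at 8 months too, from -0.60 (Chn2) to -2.18 (Kcnk12).

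**Figure D2:**
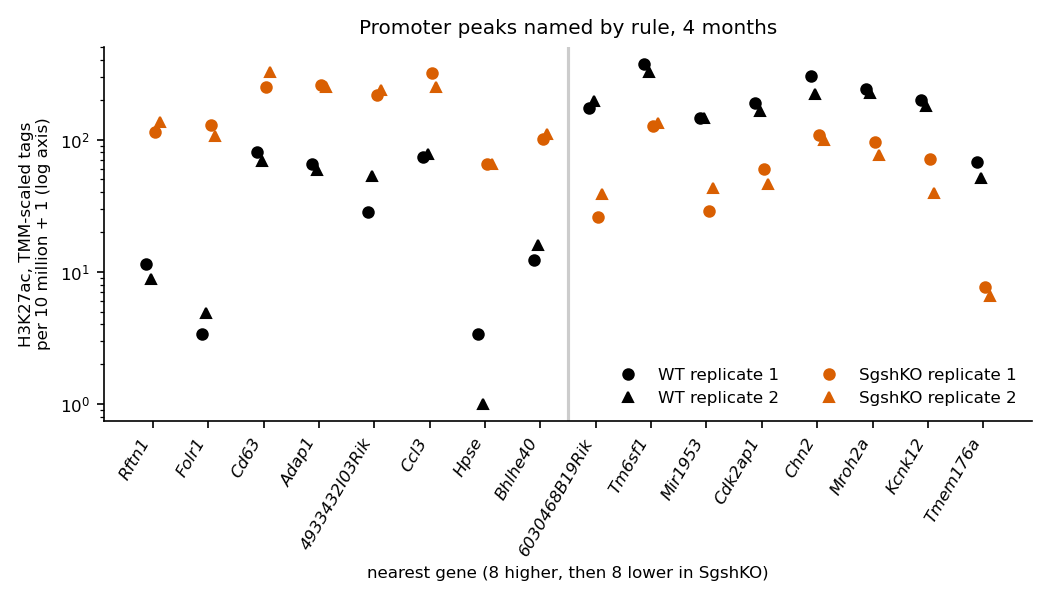
H3K27ac at 16 promoter peaks at 4 months, as TMM-scaled tags per 10M plus 1 on a log axis, with 1 point per library (black WT, orange SgshKO, circles replicate 1, triangles replicate 2). The 8 peaks on the left are higher and the 8 on the right lower in SgshKO. They were chosen by smallest p among called peaks at which the genotypes did not overlap, so their separation was required. It is largest at Folr1 and Hpse and smallest at Chn2.

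Called peaks were often grouped at the same gene. The tested peaks were nearest to 14355 genes, of which 2313 had a higher and 1559 a lower peak, 213 of them both. At least 5 higher peaks were found at 258 genes and at least 5 lower ones at 105. The nearest gene need not be the one an element acts on. Rftn1 led the distal peaks, with 22 of 26 higher, from 5.753 kb before its start to 165.184 kb after it, and with both promoter peaks higher. The distal peak with the smallest p (chr17:50119881-50120681) held 255 and 239 tags in SgshKO against 50.4 and 43.3 in WT (log2 change 2.38, limma adjusted p = 1.36e-10). The 1 Mb bin of chromosome 17 from 50 to 51 Mb, in which Rftn1 and the neighbouring Plcl2 lie, held the most higher peaks of any bin, 34 of 97.

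Other genes with many higher distal peaks differed in whether their promoters moved. Tmem154, a transmembrane protein gene, had 16 of 18 distal peaks higher, with a median log2 change of 2.30 among them, and its only promoter peak was higher. Cd9, a tetraspanin gene, had 17 of 39 distal peaks and both promoter peaks higher, and Rassf3, of the Ras-association domain family, 17 of 28 and 2 of 3. Nek6, a kinase gene, had 17 of 35 and 2 of 3. Zmiz1, a transcriptional coregulator gene, had 20 of 46 distal peaks higher with a smaller median of 0.97 and none of its 3 promoter peaks called. At its distal peak of smallest p the libraries held 333 and 337 tags in SgshKO and 170 and 200 in WT (log2 change 0.86, limma adjusted p = 9.50e-05). Of the called peaks, 18 of 22 at Rftn1, 16 of 17 at Rassf3 and 15 of 16 at Tmem154 were also called at 8 months, as were 11 of 17 at Cd9, 11 of 17 at Nek6 and 7 of 20 at Zmiz1, where all 20 were positive at 8 months.

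Lower distal peaks were led by Gm21057 (15 of 40, median log2 change -0.76), Selplg (14 of 21), Ifitm10 (13 of 48), Chsy1 (12 of 31), Tjp1 (12 of 16) and Lsm6 (10 of 15). Selplg encodes the ligand of P-selectin and is high in homeostatic microglia. Its called peaks spread from 14.423 kb before to 6.015 kb after the start, and its promoter peak was lower too. The most significant distal one held 39.7 and 46.1 tags in SgshKO and 154 and 134 in WT (log2 change -1.72, limma adjusted p = 1.62e-06). A single Selplg peak, 24.238 kb before the start, was higher (log2 change 2.73, limma adjusted p = 0.0395). This peak was weak, with 8.10 and 9.23 tags in SgshKO against 0 and 1.11 in WT. At 8 months all 14 lower distal peaks of Selplg were also called, as were 4 of 15 at Gm21057, 10 of 13 at Ifitm10, and 9 each at Chsy1, Tjp1 and Lsm6. Lsm6, which encodes an RNA-binding subunit of the spliceosome, had called distal peaks with a median log2 change of -2.30, among them one with 8.83 and 9.84 tags in SgshKO against 74.4 and 62.7 in WT, 79.993 kb from its start (log2 change -2.75, limma adjusted p = 8.22e-07). Tjp1, a tight junction scaffold gene, fell at both promoter peaks, and its called distal peaks had a median log2 change of -2.04. The peak of smallest p at Ifitm10 held 8.10 and 1.85 tags in SgshKO and 30.4 and 52.1 in WT, and that at Chsy1, which encodes a chondroitin sulfate synthase, 107 and 91.7 against 241 and 271. The Gm21057 peak of smallest p, with 97.1 and 119 tags against 192 and 170, lost its call without SgshKO replicate 1 (limma adjusted p = 0.173) or WT replicate 1 (0.105). Gm21057 lies in the 1 Mb bin with the most lower peaks, chromosome 7 from 80 to 81 Mb, which held 39 of 206.

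Gene lists were read by the peaks nearest to their members, each beside the share over all tested peaks, 7.87% higher and 4.32% lower, and their median log2 change of 0.00. For the counts of genes, the background is 2313 genes with a higher and 1559 with a lower peak of all 14355. A gene with more tested peaks has more chances of a call, so counts of genes are a description only. Enzymes of heparan sulfate degradation came first, since Sgsh is one of them. Of 45 tested peaks 9 were higher and 2 lower (median log2 change 0.22), at 3 and 1 of 8 genes. Heparanase gave 6 of the 9, all 6 of its tested peaks. An intron peak of Hpse 9476 bp from its start (chr5:100709840-100710640) held 164 tags in both SgshKO libraries and 4.80 and 3.88 in WT (log2 change 4.96, standard error 0.35, limma adjusted p = 1.28e-12). Naglu, the alpha-N-acetylglucosaminidase, had 1 peak higher and 2 lower of 11, and its lower peak 13123 bp before the start held 25 and 24.6 tags against 109 and 67.7 (log2 change -1.75, limma adjusted p = 7.19e-05). No peak was called at Sgsh, Hgsnat, Ids, Gusb or Sumf1, and Idua had no tested peak.

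Of 285 peaks at other lysosomal hydrolase genes, 57 (20.0%) were higher and 3 (1.05%) lower, at 17 and 1 of 36 genes (median log2 change 0.22). The proteases Ctsd (11 of 23 peaks) and Ctsb (9 of 15) and the acid lipase Lipa (7 of 10) had the most. At Ctsb a peak 8400 bp from the start held 224 and 232 tags in SgshKO against 80.0 and 86.5 in WT (log2 change 1.44, limma adjusted p = 4.60e-07). Ctsd, 4124 bp before its start, held 336 and 303 against 148 and 157 (log2 change 1.06, limma adjusted p = 2.02e-06). Both WT levels were already high, and the rises were about 2- to 3-fold. Lipa, which hydrolyses cholesteryl esters in the lysosome, held 127 and 164 against 43.2 and 67.7 at 5869 bp from its start (log2 change 1.39, limma adjusted p = 7.44e-05). The start-site peak of Gla, the alpha-galactosidase gene, was weak, with 18.4 and 19.1 against 1.60 and 1.66 (log2 change 2.91), and was not called when either SgshKO replicate was left out. Psap, the saposin precursor, had 4 peaks higher and 3 lower of 36. Its lower peak of smallest p held 89.0 and 90.4 against 134 and 170 (log2 change -0.74, limma adjusted p = 0.0118), and was not called without SgshKO replicate 1, SgshKO replicate 2 or WT replicate 2.

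Among the lysosomal lists, genes of lysosomal membrane proteins had the lowest share of higher peaks. Of their 177 peaks 12 (6.78%) were higher and 1 (0.565%) lower (median log2 change 0.15), below the shares over all peaks in both directions. Npc1, a lysosomal cholesterol transporter, held 127 and 153 tags in SgshKO at 12240 bp from its start and 53.6 and 63.2 in WT (log2 change 1.24, limma adjusted p = 3.29e-04). A weak start-site peak of the chloride transporter gene Clcn7 held 25 and 44.3 against 0 and 10.5, and was not called by DESeq2 or without SgshKO replicate 2 or WT replicate 1. The only lower peak was at Slc29a3, a nucleoside transporter gene (log2 change -0.71, limma adjusted p = 0.0222). This call was lost whichever of the 4-month libraries was left out.

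The V-ATPase, the proton pump of lysosomes, had 21 of 82 peaks higher (25.6%) and 7 lower (8.54%), a median log2 change of 0.56, with the directions kept apart by gene. Atp6v1c1 had 6 of 11 peaks higher and Atp6v0c, the proteolipid subunit, 4 of 8. Atp6v0c held 277 and 295 tags in SgshKO at 1226 bp before its start and 118 and 96.5 in WT (log2 change 1.41, limma adjusted p = 7.03e-08). Atp6v1a, the catalytic subunit, held 113 and 106 against 11.2 and 36.1 at 19286 bp (log2 change 2.38, limma adjusted p = 9.49e-07). Atp6v0a1 held 81.7 and 81.8 against 14.4 and 21.6 at 6213 bp before its start (log2 change 2.15, limma adjusted p = 7.87e-06). Its paralog Atp6v0a2 went the other way, with 5 of 7 peaks lower and none higher. At 4594 bp from the Atp6v0a2 start the libraries held 11.8 and 10.5 tags in SgshKO and 66.4 and 50.5 in WT (log2 change -2.28, limma adjusted p = 1.52e-04). The other 2 lower peaks were at Atp6v1b2 (log2 change -0.57 at the smaller p, limma adjusted p = 0.0318). That one kept its call in only 1 of the 4 fits with a library left out. The 4 lysosomal lists together had 99 of 589 peaks higher (16.8%) and 13 lower (2.21%), at 36 and 5 of 84 genes. The higher count was 45 after scaling by library total alone, with 23 at hydrolases, 10 at the V-ATPase, 5 at membrane proteins and 7 at heparan sulfate enzymes, and it was 59 without SgshKO replicate 1, 48 without SgshKO replicate 2 and 63 without WT replicate 1.

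The MiT/TFE factors and genes of nutrient sensing and autophagy had 52 of 198 peaks higher (26.3%) and 5 lower (2.53%), at 14 and 3 of 28 genes (median log2 change 0.34). For the factors themselves, Mitf had 9 of 14 peaks higher, Tfeb 10 of 26, Tfec 1 of 3 and Tfe3 none of 5. The start-site peaks did not pass the test. They held 66.2 and 64.0 tags in SgshKO and 48.0 and 44.4 in WT at Mitf (limma adjusted p = 0.265), 120 and 194 against 137 and 129 at Tfeb (0.599), and 89.0 and 73.8 against 63.2 and 81.6 at Tfe3 (0.730). The called peaks of smallest p lay in introns. At Tfeb, 18776 bp from the start (chr17:47756307-47757107), the libraries held 235 and 254 tags in SgshKO and 60.8 and 71.6 in WT (log2 change 1.87, limma adjusted p = 1.66e-09). At Mitf, 8836 bp from the start, they held 187 and 143 against 46.4 and 57.1 (log2 change 1.65, limma adjusted p = 1.37e-06).

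Genes that tether these factors to the lysosome or control their entry to the nucleus were called as well. Rragd, a Rag GTPase gene, had 2 of 3 peaks higher, and the one 833 bp from its start held 47.1 and 46.8 tags in SgshKO against 0 and 1.11 in WT (log2 change 5.04, standard error 0.62, limma adjusted p = 1.87e-07). Rragc had 3 of 12 peaks higher and Flcn, the folliculin gene, 1 of 2. The folliculin partners differed. Fnip2 had 14 of 20 peaks higher, with 146 and 152 against 23.2 and 28.9 tags at the best one (log2 change 2.48, limma adjusted p = 1.32e-08). Fnip1 had a lower peak with 33.1 and 46.8 against 101 and 89.3 (log2 change -1.25, limma adjusted p = 9.27e-04), which was not called without SgshKO replicate 1 (0.0549). Sqstm1, the autophagy receptor p62, held 174 and 148 tags in SgshKO at 2359 bp before its start and 16.0 and 27.2 in WT (log2 change 2.88, limma adjusted p = 4.80e-10). Gabarapl2, an ATG8-family gene, had a lower peak with 30.9 and 31.4 against 95.2 and 57.1 (log2 change -1.22, limma adjusted p = 0.00519), not called without SgshKO replicate 1 or WT replicate 1. The list had 35 higher and 7 lower calls after scaling by library total alone.

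**Figure D3:**
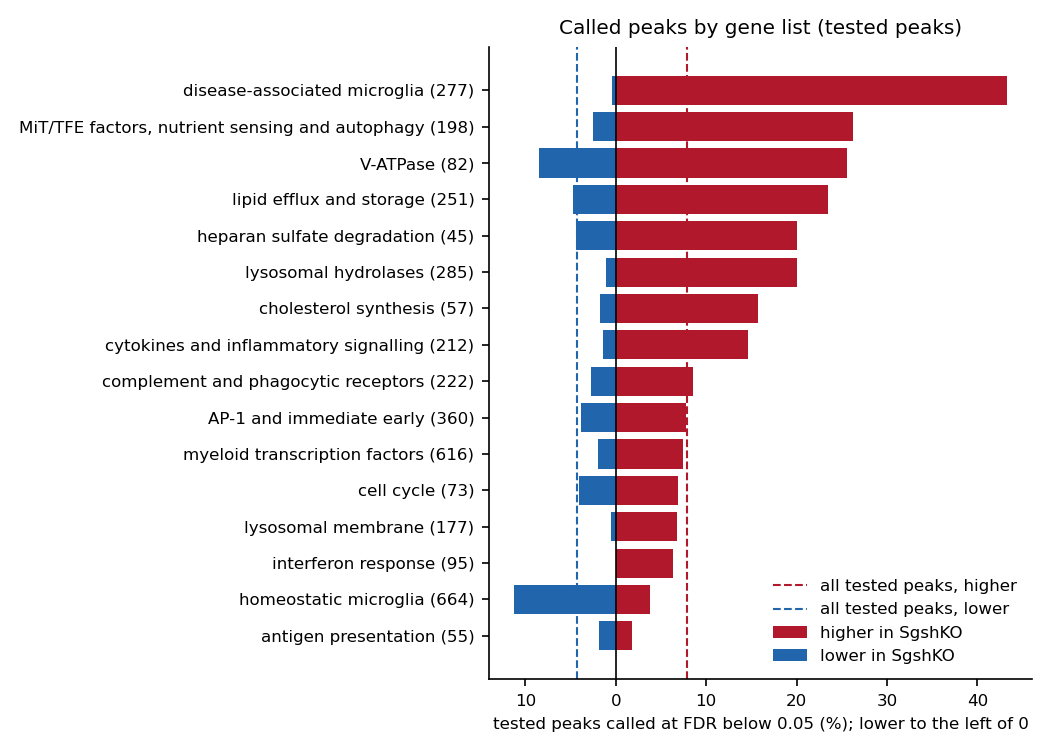
Share of tested peaks called at 4 months (x axis, %) for each gene list, with the number of tested peaks in brackets, red bars to the right for peaks higher and blue bars to the left for peaks lower in SgshKO microglia. Dashed lines mark the shares over all tested peaks, 7.87% higher and 4.32% lower, and the list of disease-associated microglia reaches 43.3% higher.

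Genes of disease-associated microglia, a state described in neurodegeneration models, had 120 of 277 peaks higher (43.3%) and 1 lower, at 29 and 1 of 33 genes (median log2 change 0.81). This list and the homeostatic and lysosomal ones were known from earlier results of these data to differ, so their counts are a description and not independent evidence. Apoe, the lipid transport apolipoprotein gene, had 5 of 6 peaks higher. Its start-site peak (chr7:19698751-19699551) held 160 and 167 tags in SgshKO against 23.2 and 28.9 in WT (log2 change 2.61, limma adjusted p = 2.19e-08). Csf1, the ligand of the receptor on which microglia depend, had 10 of 16 higher, with 123 and 117 against 12 and 21.6 at 55824 bp before its start (log2 change 2.82, limma adjusted p = 3.96e-07). Cst7, a cystatin gene, had all 3 of its peaks higher, with 185 and 157 against 42.4 and 52.1 at 2684 bp before its start (log2 change 1.84, limma adjusted p = 8.69e-08). The growth factor gene Igf1 had all 5 higher, with 50.0 and 36.3 against 2.40 and 4.44 at the best (log2 change 3.34, limma adjusted p = 7.37e-06). In all of these both SgshKO libraries lay above both WT libraries.

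Hif1a had 9 of 14 peaks higher. The one with the smallest p lay 119361 bp before the nearest annotated Hif1a start and held 374 and 417 tags in SgshKO against 83.2 and 98.8 in WT (log2 change 2.11, limma adjusted p = 1.10e-10). Lgals3, the galectin-3 gene, had 9 of 10 higher, led by a peak 12238 bp before its start with 335 and 306 against 102 and 150 (log2 change 1.37, limma adjusted p = 2.87e-07). The list also held members without calls. Trem2, the lipid-sensing receptor of this state, had 0 of 4 peaks called. Its start-site peak held 318 and 393 tags in SgshKO and 300 and 348 in WT, which overlapped (log2 change 0.13, limma adjusted p = 0.616). Lpl, the lipoprotein lipase gene, also had 0 of 4, while Tyrobp, the adaptor of TREM2, had 3 of 6 higher. The 1 lower peak was at the receptor gene Gpr84, with 3.67 and 9.84 against 25.6 and 27.7 (log2 change -1.96, limma adjusted p = 0.0112), and was not called without SgshKO replicate 1 (0.232) or WT replicate 1 (0.0529). Higher calls on the list numbered 79 after scaling by library total alone, 76 without SgshKO replicate 1, and 83 to 121 with any other library left out.

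Homeostatic microglial genes had 75 of 664 peaks lower (11.3%) and 25 higher (3.77%), at 18 and 10 of 32 genes, 6 of which had both. The median log2 change of all their peaks was -0.15. Selplg (15 of 22 lower) and Nav3 (10 of 19) gave 25 of the 75. Nav3, a neuron navigator gene, held 11.8 and 6.76 tags in SgshKO at 5741 bp from its start (chr10:109994078-109994878) against 64.0 and 51.6 in WT (log2 change -2.55, limma adjusted p = 1.91e-05). Its called peaks spread from 94.429 kb before to 82.646 kb after the start. Sall1, the transcription factor gene that defines microglia, had 9 of 57 lower and none higher, with 159 and 124 against 318 and 239 at 2369 bp before its start (log2 change -0.96, limma adjusted p = 8.99e-05). Csf1r had 5 of 17 lower, Golm1, Adgrg1 and Tgfbr1 4 each, and Tmem119 3 of 19. Upk1b fell at its start-site peak, from 47.2 and 41.6 tags in WT to 10.3 and 9.23 (log2 change -2.08, limma adjusted p = 2.01e-04), and Crybb1 from 591 and 585 to 364 and 413 (log2 change -0.60, limma adjusted p = 2.43e-04).

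The purinergic receptor gene P2ry12 and the fractalkine receptor gene Cx3cr1 did not pass the test at their starts. P2ry12 held 361 and 311 tags in SgshKO and 427 and 316 in WT (log2 change -0.13, limma adjusted p = 0.641), with 1 of its 9 peaks lower. Cx3cr1 held 340 and 290 against 327 and 309 (log2 change -0.02, limma adjusted p = 0.954), with none of 28 called. The groups overlapped at each. Tmem119 at its start held 76.5 and 80.6 against 93.6 and 91.5 (log2 change -0.23, limma adjusted p = 0.589). Some homeostatic genes had higher peaks. Tgfbr2, a TGF-beta receptor gene, had 5 of 47 higher and none lower, with 239 and 232 against 104 and 105 at the best (log2 change 1.16, limma adjusted p = 1.07e-05), and Fcrls had one with 146 and 119 against 54.4 and 53.3 (log2 change 1.28, limma adjusted p = 2.04e-04). The phagocytic receptor gene Mertk had 6 higher and 2 lower of 44. Lower calls on the list numbered 71 after scaling by library total alone, 38 without SgshKO replicate 1, 34 without SgshKO replicate 2, 29 without WT replicate 1 and 56 without WT replicate 2. Higher calls on it numbered 11 after scaling by library total alone, 8, 16 and 10 without SgshKO replicate 1, SgshKO replicate 2 and WT replicate 1, and 27 without WT replicate 2.

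Genes of lipid efflux and storage had 59 of 251 peaks higher (23.5%) and 12 lower (4.78%), at 13 and 3 of 24 genes (median log2 change 0.19). The cholesterol exporters Abca1 and Abcg1 moved in opposite directions. Abca1 had 16 of 30 peaks higher and none lower, from 2.423 to 43.465 kb after its start, with 121 and 155 tags in SgshKO against 40.8 and 59.4 in WT at 35100 bp (log2 change 1.46, limma adjusted p = 2.03e-05). Abcg1 had 9 of 22 lower and none higher, from its start to 21.49 kb after it. Its peak at 16702 bp (chr17:31073996-31074796) held 46.4 and 59.7 tags in SgshKO against 150 and 153 in WT (log2 change -1.50, limma adjusted p = 4.28e-06), and its change at 8 months was -0.47. At 9 bp before the Abcg1 start, 36.1 and 41.2 tags in SgshKO stood against 77.6 and 95.4 in WT (log2 change -1.14, limma adjusted p = 0.00410), while the Abca1 peak 27 bp before its start had a log2 change of -0.13 (limma adjusted p = 0.721). Both genes are transcribed under the liver X receptors with RXR as partner. Rxra, which encodes that partner, had 10 of 45 peaks higher and 2 lower, with 339 and 310 tags against 39.2 and 76.0 at 18114 bp from its start (log2 change 2.55, limma adjusted p = 7.52e-11).

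Nceh1 had 9 of 11 peaks higher, and the one with the smallest p on the list, 8999 bp from its start (chr3:27191603-27192403), held 222 and 233 tags against 15.2 and 12.2 (log2 change 3.96, limma adjusted p = 1.28e-12). The nuclear receptor genes Ppard (6 of 11) and Pparg (4 of 11) had higher peaks only, as had Dgat2 (3 of 8) and Plin2 (2 of 4), genes of triglyceride synthesis and lipid droplet coating. Pparg held 62.5 and 55.4 against 10.4 and 7.21 at 47954 bp from its start (log2 change 2.63, limma adjusted p = 3.29e-06). Acsl1, an acyl-CoA synthetase gene, had a lower peak (log2 change -0.75, limma adjusted p = 0.00747) that lost its call under at least 1 alternative. Under scaling by library total alone the list had 44 higher and 13 lower. Cholesterol synthesis genes had 9 of 57 peaks higher (15.8%) and 1 lower, at 7 and 1 of 21 genes (median log2 change 0.55). Fdft1, the squalene synthase gene, held 60.3 and 46.8 against 3.2 and 12.8 (log2 change 2.83, limma adjusted p = 6.11e-05). Srebf2, the sterol-responsive factor gene, held 50.0 and 48.6 against 12.8 and 20.0 at its start (log2 change 1.56, limma adjusted p = 0.00287), not called without SgshKO replicate 1 or WT replicate 1. The lower peak was at Scap, the SREBP escort protein gene, with 36.8 and 55.4 against 78.4 and 95.4, and it too lost its call under at least 1 alternative. The list had 2 higher calls without SgshKO replicate 1 and 4 without SgshKO replicate 2.

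**Figure D4:**
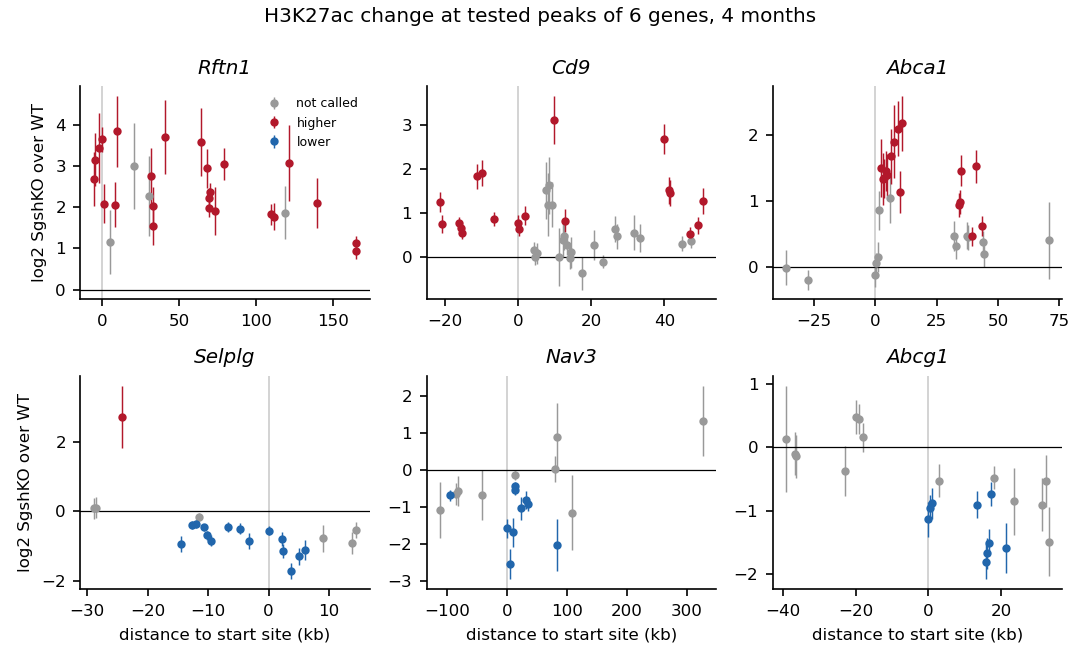
Log2 change of H3K27ac, SgshKO over WT at 4 months (y axis, points with standard errors), at each tested peak of 6 genes by distance to the start site (x axis, kb), red higher, blue lower, grey not called. Abca1 has 16 higher peaks, all after its start, while Abcg1 has 9 lower peaks.

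Inflammatory genes changed at a few members. Cytokines and their signalling genes had 31 of 212 peaks higher (14.6%) and 3 lower (1.42%), at 10 and 2 of 26 genes (median log2 change 0.18), with 19 higher after scaling by library total alone. The chemokine genes Ccl3 (7 of 11) and Ccl4 (3 of 7) and the Toll-like receptor gene Tlr2 (5 of 16) were higher. Tlr2 held 60.3 and 52.3 tags in SgshKO at 3411 bp before its start and 1.60 and 11.1 in WT (log2 change 3.35, limma adjusted p = 1.61e-06). Il1b had none of 8 called. Nlrp3, the inflammasome sensor gene, had 2 of 11 lower, with 84.6 and 84.9 against 184 and 174 (log2 change -1.07, limma adjusted p = 2.33e-04), and its change at 8 months was 0.25. Tnfaip3, an inhibitor of NF-kappaB signalling, had a lower peak (log2 change -0.54). It kept its call in only 1 of the 4 fits with a library left out.

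Interferon response genes had 6 of 95 peaks higher (6.32%) and none lower, at 6 of 21 genes (median log2 change 0.38). These were led by Ifit3 (log2 change 1.52, limma adjusted p = 0.00732) and Rtp4 (log2 change 1.07, limma adjusted p = 0.0116). No peak on this list was called without SgshKO replicate 1 or without SgshKO replicate 2, and 1 was after scaling by library total alone. Antigen presentation genes (median log2 change -0.12) had 1 of 55 higher, at H2-D1 (log2 change 0.83, limma adjusted p = 0.0186), a call lost under library-total scaling (0.133) and without SgshKO replicate 1, SgshKO replicate 2 or WT replicate 2. They had 1 lower, at the class II gene H2-Aa, with 0 tags in both SgshKO libraries and 14.4 and 9.43 in WT. Leaving out a library lost the H2-Aa call in each case. Complement and phagocytic receptor genes had 19 of 222 higher (8.56%) and 6 lower (2.70%), and their median log2 change was 0.04 after TMM scaling and -0.11 after scaling by library total alone, which called 9 higher and 6 lower. Cd300lf, an inhibitory receptor gene, held 160 and 180 against 28 and 51.0 (log2 change 2.14, limma adjusted p = 6.59e-08). Fcgr2b, the inhibitory Fc receptor gene, held 136 and 98.4 against 19.2 and 32.7 (log2 change 2.16, limma adjusted p = 1.33e-06). Lower peaks at Itgam (log2 change -1.31) and Cd33 (-0.39) each kept their call in only 1 of the 4 fits with a library left out.

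Myeloid transcription factor genes had 46 of 616 peaks higher (7.47%) and 12 lower (1.95%), at 12 and 7 of 22 genes, a higher share close to that of all peaks (median log2 change -0.00). Spi1, which encodes PU.1, the factor used to sort the nuclei, had none of 14 called, with 372 and 350 tags in SgshKO and 413 and 376 in WT at its start (log2 change -0.13, limma adjusted p = 0.577). Runx1 had 15 of 83 higher and 2 lower, led by a peak 17635 bp before its start with 418 and 413 against 118 and 117 (log2 change 1.81, limma adjusted p = 4.00e-11). Bhlhe40 had 4 of 5 higher and the oxidative stress factor gene Nfe2l2 7 of 32. Irf8, an interferon regulatory factor gene, had a lower peak with 41.9 and 41.8 against 125 and 74.3 (log2 change -1.18, limma adjusted p = 0.00249), not called without WT replicate 1 (0.135). Smad3, a TGF-beta effector gene, had one with 48.6 and 48.0 against 103 and 97.1 (log2 change -1.04, limma adjusted p = 0.00298).

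AP-1 and immediate early genes had 28 of 360 peaks higher (7.78%) and 14 lower (3.89%), and 17 each after scaling by library total alone (median log2 change -0.06 after TMM). Jun held 92.0 and 91.0 against 16.8 and 21.1 at 160574 bp before its start (log2 change 2.22, limma adjusted p = 2.41e-06), and the phosphatase gene Dusp1 64.8 and 60.3 against 9.60 and 4.99 (log2 change 2.99, limma adjusted p = 2.37e-05). Maff, a small MAF factor gene, had 7 of 17 higher. Fosl2 had 7 of 19 lower, with 44.9 and 28.3 against 92.8 and 124 at the best (log2 change -1.56, limma adjusted p = 5.60e-05), and Klf2 a lower peak with 14.0 and 13.5 against 48.8 and 36.1 (log2 change -1.54, limma adjusted p = 0.00208). Cell cycle genes had 5 of 73 higher and 3 lower (median log2 change -0.04). A distal peak of Mki67, the Ki-67 gene, 57632 bp before its start, held 31.6 and 56.0 against 4.80 and 1.11 (log2 change 3.62, limma adjusted p = 8.16e-06). Ccnd1, the cyclin D1 gene, was higher at a peak 89946 bp before its start (log2 change 1.31) and lower at its start (-0.90). Each of these calls was kept in only 1 of the 4 fits with a library left out.

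The counts of most lists followed the total of calls when SgshKO replicate 1, SgshKO replicate 2 or WT replicate 1 was left out. In that order, higher calls numbered 30, 27 and 37 at hydrolases, 5, 2 and 6 at lysosomal membrane proteins, and 16, 11 and 13 at the V-ATPase. They numbered 33, 31 and 41 on the MiT/TFE and autophagy list, 33, 39 and 45 on that of lipid efflux and storage, and 15, 18 and 17 at cytokines. The complement list had 10, 9 and 11, myeloid factors 26, 27 and 33, and AP-1 genes 12, 13 and 19.

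The H3K27ac changes were set beside the MiT/TFE factor pools. A peak was counted as bound where the mean of both genotypes' log2 enrichment over input was at least 1. Among distal peaks, 13.1% of the 23523 MITF-bound ones were higher against 5.93% of the 26229 not bound. The shares were 13.4% and 6.43% for TFEB, and 11.4% and 5.0% for TFE3. The shares of lower peaks were nearly equal, 5.02% and 4.97% for MITF, 4.96% and 5.01% for TFEB, and 5.13% and 4.70% for TFE3. Because this class uses the SgshKO pool, in which factor tags were higher at the same peaks, part of the excess is built in. With peaks counted as bound by the WT pool alone, a choice added after the values were seen, 11.4% of bound distal peaks were higher against 8.13% of the others for MITF, 11.3% against 8.12% for TFEB and 11.2% against 7.26% for TFE3. The lower shares were then 5.52% against 4.69%, 5.35% against 4.78% and 5.57% against 4.36%. At promoters, by the mean of both genotypes, 5.08% of MITF-bound peaks were higher against 3.51% of the others, 5.47% against 3.29% for TFEB, and 4.67% against 3.24% for TFE3. By the WT pool alone these were 5.07% against 3.91% for MITF, 4.84% against 3.98% for TFEB and 4.71% against 3.77% for TFE3. The lower shares at promoters were 2.33% against 2.95%, 2.24% against 2.99% and 2.43% against 3.22% by the mean of both genotypes. They were 2.67% against 2.64%, 2.81% against 2.57% and 2.54% against 2.77% by the WT pool alone. Bound distal peaks also had more H3K27ac (a median of 43.4 tags against 18.1 for MITF), and calls were more frequent at stronger peaks, so the part of signal strength was not tested.

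At the 4634 distal peaks with higher H3K27ac the SgshKO pool exceeded the WT pool at 79.5% for MITF, 65.7% for TFEB and 89.6% for TFE3, with median log2 ratios of 1.70, 0.82 and 1.56. At the 2484 lower ones it did so at 36.1%, 24.9% and 39.6%, with medians of -0.49, -1.12 and -0.32. At the 42634 that were not called the medians were 0.00, -0.50 and 0.40. So each factor's pool ratio was ordered as the H3K27ac change was, around a middle that differed by factor. The ratios are of tags per 10M plus 1 and are not divided by input. The median input tags at higher, lower and uncalled peaks were 4.08, 6.53 and 4.70 in the WT pool and 2.23, 1.49 and 1.49 in the SgshKO pool. By these medians the SgshKO input was nearest to the WT input at higher peaks and farthest below it at lower ones. The input pools thus had the same order as the factor pools, and the part of input in the ratios was not tested.

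**Figure D5:**
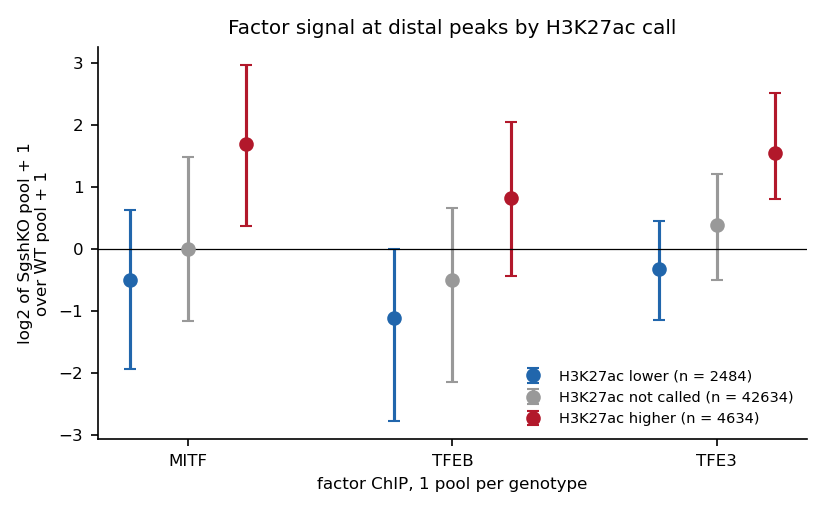
Log2 ratio of SgshKO over WT factor pool (tags per 10M plus 1, y axis) at distal peaks for MITF, TFEB and TFE3, split by the 4-month H3K27ac call, with points for the median over peaks and bars for the quartiles. The medians at peaks with higher H3K27ac (1.70, 0.82 and 1.56) lie above those at peaks not called and at peaks with lower H3K27ac, and there is 1 pool per genotype and no replicate.

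In the other sorted nuclei at 4 months, limma called 0 of 98037 peaks in neurons (0.0%), with 8863 at an unadjusted p below 0.05, and 161 of 78411 in oligodendrocytes (0.205%), 79 of them higher. edgeR and DESeq2 were not run on these nuclei here. Of the 4634 distal peaks that were higher in microglia, 708 (15.3%) overlapped a tested neuronal peak by at least 400 bp and 686 (14.8%) an oligodendrocyte peak. Over these, the median log2 change was 0.10 in neurons and 0.08 in oligodendrocytes, against 1.44 and 1.41 in microglia. Peaks of 2 genes were called higher in both microglia and oligodendrocytes, and both are named after their values were seen. A peak near Rassf3 (chr10:121507106-121507906) had log2 changes of 1.93 in microglia and 1.39 in oligodendrocytes, and one near Ttc7b (chr12:100445104-100445904) 2.93 and 2.10. No test compared the cell types with each other.

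At 8 months limma called 4784 of the 69663 microglial peaks higher (6.87%) and 4351 lower (6.25%), from libraries not used for the 4-month contrast other than to estimate the spread. Of the 5483 peaks higher at 4 months, 5299 (96.6%) kept a positive change in the older mice and 3163 (57.7%) were called the same way, with median log2 changes of 1.40 and 1.04. Of the 3012 lower ones, 2857 (94.9%) kept a negative one and 1511 (50.2%) were called, with medians of -1.10 and -0.78. Promoter peaks were called again less often than distal ones in these counts, 49.4% against 59.2% of higher and 38.8% against 52.6% of lower peaks, a difference that was not tested. Called the opposite way at 8 months were 2 peaks higher at 4 months, both at promoters. The smaller medians at 8 months come after peaks were chosen by their 4-month call. By a test of the difference itself, limma found 0 of 69663 peaks whose genotype effect differed between ages (smallest adjusted p = 0.398), with 4508 (6.47%) at an unadjusted p below 0.05, and edgeR and DESeq2 were not run for this contrast here.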

How the data were processed

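H3K27ac ChIP-seq was measured in sorted microglial nuclei, 2 libraries per genotype at 4 months. The values were deposited by the authors as signal, scaled to tags per 10M in each library, in the layout of HOMER's peak annotation, per the file headers. The submitters' processing notes name mm10, Bowtie2, HOMER and DESeq2 without roles. Windows with at least the filterByExpr minimum (10 tags) were kept, scaled by TMM (edgeR 4.0.16, R 4.3.3), and log2(tags + 1) was tested two-sided with limma 3.58.1 (variance trend) over the 8 microglial H3K27ac libraries, 4 groups of 2. A call needed a false discovery rate (Benjamini-Hochberg, over all tested peaks) below 0.05. Each peak went to the gene named in the table. 42 peaks had no name. Whole tags were recovered from the value steps in 100% of low values (99.99594% in the WT input of replicate 2), within 0.02 of a step plus rounding, and edgeR and DESeq2 1.42.0 ran on them as alternatives. The input headers repeat the ChIP totals, so input totals were taken from the steps.

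Named peaks followed a rule: Sgsh, the 8 higher and 8 lower promoter peaks of smallest p with a change of at least 1 on the log2 scale, 1 per gene, the 6 genes with most called distal peaks per direction, up to 2 genes per direction and list, markers, the start sites of Mitf, Tfeb and Tfe3, and 2 bins. The 8 higher and 8 lower promoter peaks were taken only from called peaks at which the 2 genotypes did not overlap at 4 months. Other named peaks were added after values were seen. The members and the 23 gene lists (435 genes, 415 in the table) were chosen with earlier results of these data known. On simulated data over 69663 peaks for this contrast, 100 peaks were changed 2-fold and 100 were changed 4-fold. Of these, 28% and 64% were recovered, with 5 false calls. The data had far more called peaks (8495) than the simulation had changed ones, so these figures need not hold for the data. Promoter sequences came from RefSeq (GRCm38.p6), matched by symbol. Counting intervals were not computed, since limma used replicate spread. The alternatives were scaling, filter, pseudocount, test, libraries in the fit, replicate block and each library left out. Counting peaks as bound by the WT pool alone was added after the values were seen.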

Additional observations from a re-analysis of the deposited data

How the results depend on the processing

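The total of 8495 called peaks ranged from 3945 to 9048 with 1 library left out, promoter calls (1377) from 581 to 1762, distal calls (7118) from 3364 to 7286, higher peaks of disease-associated genes (120) from 76 to 121, lower homeostatic peaks (75) from 29 to 56, higher lysosomal peaks (99) from 48 to 95, and input calls (0) from 0 to 1. Leaving out a library leaves that genotype with 1, which is assumed to vary like the other groups. Scaling by library total alone gave 79 disease-associated and 45 lysosomal higher peaks, and promoters ending at 3 kb 2134 promoter calls. Total calls were 6519 under library-total scaling, 6584 with DESeq2 on whole tags, 7687 with only the 4 libraries of 4 months, 7757 without the filter, 8285 and 9043 with pseudocounts of 0.5 and 5, 8526 with median-of-ratios scaling and 8751 with edgeR. No called peak that a setting tested changed sign under it or with a library left out (8253 of the 8495 were tested by DESeq2). The genotypes did not overlap at nearly all called peaks, so leaving out 1 library could hardly change a sign. The signs kept with a library left out are therefore no check of the calls. The replicate block within age gave 8739 calls. Same-numbered libraries did not deviate together (correlation 0.00296 at 4 months and -0.0199 at 8 months), so the numbers were not taken as pairs. Of 106 named called peaks 74 kept their call under every alternative run and 32 lost it under at least 1. Most named peaks were chosen by a small p, which favours keeping a call, so this share does not stand for all calls. Of all 8495 calls, 73.0% were also called under library-total scaling. DESeq2 also called 79.7% of the 8253 that it tested. Directions of uncalled start-site peaks moved with 1 library left out. The Xist peak at 1423 bp from the start ranged from -4.66 to 0.24 on the log2 scale, the Tfe3 peak at -54 bp from the start from -0.0083 to 0.35, the Tfeb peak at 61 bp from the start from -0.15 to 0.55, the Trem2 peak at 37 bp from the start from -0.0233 to 0.29 (-0.0291 under library-total scaling), the P2ry12 peak at 7 bp from the start from -0.35 to 0.087, and the Cx3cr1 peak at 37 bp from the start from -0.13 to 0.10. The cause was not tested. Libraries held 12000879 to 14858655 tags, and calls were rarer at weak peaks. In the weakest of 5 equal groups by level 1.61% were higher, in the next to strongest 11.5% and in the strongest 10.7%. The part of depth was not tested.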
